A study of Mus musculus with 30 samples.

Results

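The Cd300 genes encode a family of small immunoglobulin-domain receptors, nearly all of them carried by myeloid cells, and most lie side by side on mouse chromosome 11. The members described here are Cd300a, Cd300lb, Cd300ld, Cd300lf, Cd300lg, Cd300ld4 and Cd300ld5, chosen by name from the deposited expression table, with the transcript row of highest mean taken for each gene. They are 7 of 20855 genes, and because the rows of Cd300ld4 and Cd300ld5 held the same value in every tumour, they give 6 distinct measurements. All 7 passed the filter of a mean of at least 0.1 RPKM (reads per kilobase of transcript per M reads of the library). The measurements are poly-A RNA sequencing of 30 mammary tumours, each from 1 animal of a ((MOLF x PyMT) x FVB) backcross. In this design the polyoma middle T antigen (PyMT), a viral oncogene, induces the tumours, and every animal carries its own mixture of segments from MOLF, a wild-derived strain, and FVB, an inbred laboratory strain. The labels place all tumours in 1 group with no control tissue, and give neither treatment, age nor the genotype of single animals, so every result is a relation across tumours with n = 30 unless another number stands beside it. The numbers 3273 to 4638 used below are those of single animals.

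Family members work as paired receptors. Some, such as Cd300a and Cd300lf, carry inhibitory motifs in their tails that recruit phosphatases, while others, such as Cd300lb and Cd300ld, signal through the adaptors Tyrobp (DAP12) or Fcer1g (the Fc receptor gamma chain). Several bind phosphatidylserine and other lipids exposed on dying cells. Cd300lg, also called nepmucin, stands apart, since it is known from capillary endothelium, where it takes part in lymphocyte binding.

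The start regions of the Cd300ld4 group are shown first, because they and the transcripts behind them are so alike that the levels of these genes have to be read together. RefSeq promoters (GRCm38.p6, 250 bases before to 50 after the start site) were found for 6 of the 7 members and for 10 Cd300 genes in all. Those of Cd300ld4 (chr11:115026884-115027183, minus strand) and Cd300ld5 (chr11:115037641-115037940, minus strand) were identical over all 300 bases. That of Cd300ld3 (chr11:115048281-115048580, minus strand), a Cd300 gene that is not a member, differed from them at 15 bases, which are in capitals.
Cd300ld4 and Cd300ld5: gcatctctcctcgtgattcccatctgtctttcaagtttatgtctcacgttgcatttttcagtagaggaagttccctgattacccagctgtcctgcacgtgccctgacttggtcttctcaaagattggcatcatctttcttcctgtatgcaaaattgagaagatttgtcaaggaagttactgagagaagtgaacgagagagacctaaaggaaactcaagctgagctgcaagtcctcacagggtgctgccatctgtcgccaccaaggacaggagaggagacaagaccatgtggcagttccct
Cd300ld3: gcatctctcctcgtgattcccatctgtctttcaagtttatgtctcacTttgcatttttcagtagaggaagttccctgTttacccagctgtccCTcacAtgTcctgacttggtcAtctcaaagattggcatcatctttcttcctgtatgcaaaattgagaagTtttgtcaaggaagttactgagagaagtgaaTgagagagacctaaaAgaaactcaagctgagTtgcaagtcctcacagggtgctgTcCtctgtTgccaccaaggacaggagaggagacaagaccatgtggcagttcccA
The promoter of Cd300ld, the next most alike, shared 65.7% of aligned positions with that of Cd300ld4, and those of Cd300a, Cd300lb and Cd300lf shared 46.2 to 51.1%. Transcripts in GENCODE vM21 were compared in the same way. Of 852 bases, 851 were identical between Cd300ld4 and Cd300ld5 and 842 between Cd300ld4 and Cd300ld3, whereas the longest stretch that Cd300ld4 shared with Cd300ld or Cd300lf was 65 bases. Cd300ld2, a further gene of the annotation, shared a stretch of 212 bases and 32.6% of windows of 50 bases with Cd300ld4.

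The letters GAGGAAGT, which contain the purine-rich core known to be bound by the myeloid factor PU.1, were searched on both strands. They stood in 5 of the 10 Cd300 promoters and in 3.2% of all 32851 promoters of that length. The near-identical promoters of Cd300ld4, Cd300ld5 and Cd300ld3 hold them at the same base and amount to about 1 occurrence. When the Cd300ld promoter was aligned with that of Cd300ld4, the letters fell on the same site. Cd300ld is therefore not a separate occurrence either, and the count of 5 overstates the number of independent ones. The windows of 30 bases around them are shown, with the motif in capitals, because they let the Cd300ld group and Cd300lf be set side by side.
Cd300ld4 (chr11:115027102-115027131, minus strand): atttttcagtaGAGGAAGTtccctgattac
Cd300ld3 (chr11:115048499-115048528, minus strand): atttttcagtaGAGGAAGTtccctgtttac
Cd300ld (chr11:114990011-114990040, minus strand): tctactcattaGAGGAAGTtccctgttcac
Cd300lf (chr11:115133974-115134003, minus strand): agtggctaaagGAGGAAGTgccgagtgaga
The motif began 187 bases before the start site in Cd300ld4, Cd300ld5 and Cd300ld3, 143 bases before it in Cd300ld and at the start site itself in Cd300lf. Distances are counted from each annotated start site, and the Cd300ld promoter is shifted against that of Cd300ld4 in the alignment. Against the Cd300ld4 window, 1 base differed in Cd300ld3, 7 in Cd300ld and 16 in Cd300lf. The promoters of Cd300a and Cd300lb did not hold these letters. A match is a description of the letters, and binding was not measured.

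Depth was recovered from the steps between low values. There were 14 deep libraries of 116.9 to 196.5 M reads and 16 shallow ones of 42.6 to 61.9 M, a class that the labels do not name. Depth class was not a covariate of the main fits and entered only through results within each class and as an alternative. Mean insert size differed with it (233.3 ± 14.7 in deep and 261.4 ± 12.3 in shallow libraries; SD). Correlations between tumours over all genes were 0.942 to 0.989, and no 2 libraries were identical. Luminal epithelial markers, which define the tumour's tissue, were all detected and summed to 1325 to 2814 RPKM. The 19 macrophage markers were all detected as well and summed to 375.2 to 945.5 RPKM.

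The inhibitory receptor Cd300lf and the endothelial receptor Cd300lg had the highest levels of the members. Cd300lf, which binds lipids of dying cells and is the entry receptor of mouse norovirus, was at 1.98 RPKM in its lowest tumour (animal 4139), 3.65 in the median and 6.22 in the highest (3654). It had the narrowest spread of the family, with an SD of 0.37 on the log2(RPKM + 0.1) scale, close to the median SD of 0.36 over the 17079 genes that passed the filter. Cd300lg was at 1.36 RPKM in its lowest tumour (4150), 3.25 in the median and 13.7 in the highest (4036). Its spread was wider (SD 0.70 on the same scale), and 2 tumours, 4036 and 3273 at 9.19 RPKM, lay above the rest. Cd300lf averaged 3.81 ± 1.0 RPKM and Cd300lg 3.69 ± 2.45 RPKM (SD), and Cd300lf was the higher in 22 of the 30 tumours, so their order did not hold in every tumour.

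The other inhibitory receptor, Cd300a, ranged from 0.757 RPKM (4150) through a median of 1.66 to 3.67 RPKM (4036). The activating receptors Cd300ld and Cd300lb had lower means. Cd300ld ranged from 0.512 RPKM (4438) through a median of 1.28 to 3.56 RPKM (4036), and Cd300lb from 0.440 RPKM (4030) through a median of 0.798 to 2.77 RPKM (4036). Means were 1.82 ± 0.67 RPKM for Cd300a, 1.5 ± 0.66 for Cd300ld and 0.889 ± 0.470 for Cd300lb (SD). Cd300lg exceeded Cd300a in 29 of the 30 tumours and Cd300ld exceeded Cd300lb in all 30, whereas Cd300a exceeded Cd300ld in 25. One tumour, 4036, had the highest level of 5 of the 6 distinct measurements, all except Cd300lf, and was also highest in the macrophage and adipocyte scores described below.

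**Figure D1:**
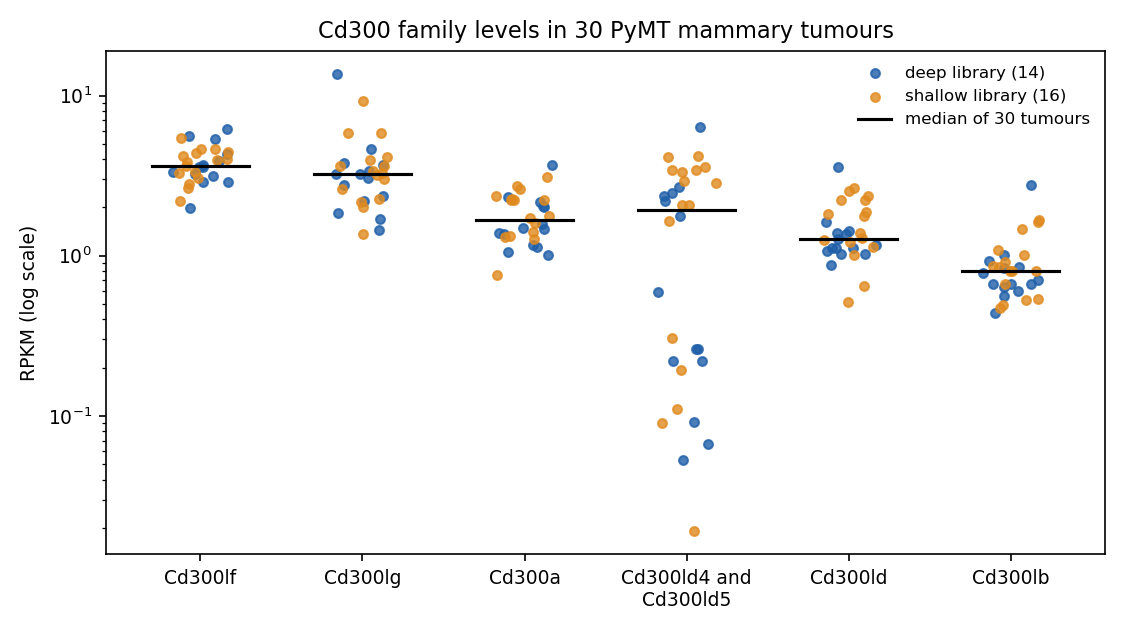
RPKM (log axis) of each member in the 30 tumours, 1 point per tumour, with deep and shallow libraries in 2 colours and the median as a bar. The points of Cd300lf span 1.98 to 6.22 RPKM in 1 band, whereas those of Cd300ld4 and Cd300ld5 fall into a lower range up to 0.594 RPKM and a higher one from 1.65 RPKM.

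Cd300ld4 and Cd300ld5 varied more than any other member and had no middle range. Their common value was 0.019 RPKM in the lowest tumour (4142), 1.92 in the median and 6.39 in the highest (4036), and its SD of 1.86 on the log2(RPKM + 0.1) scale lay at the 99.2nd percentile of all genes that passed the filter. In 13 tumours it was at most 0.594 RPKM, with a median of 0.194, and in the other 17 it was at least 1.65 RPKM, with a median of 2.86. Between the highest of the lower range (3654, 0.594 RPKM) and the lowest of the higher range (4262, 1.65 RPKM) no tumour fell, a gap of 1.33 on the log2 scale. Among gaps with at least 3 tumours on each side, no other member had one over 0.40. Gaps that set off fewer tumours at the top or bottom were not counted. These levels belong to the choice of the members and are given as a description, with no test.

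The same tumours were low and high for Cd300ld3, whose transcript is nearly identical. It was at 1.25 to 7.49 RPKM in the 17 tumours of the higher range and at 0.054 to 0.715 RPKM in the 13 of the lower range. By the gap rule Cd300ld3 itself was not split. Its largest gap with at least 3 tumours on each side was 0.77 on the log2 scale. That gap lay inside the lower range, between 0.155 and 0.334 RPKM. Cd300ld, in contrast, was spread over 1.0 to 3.56 RPKM in the higher range and 0.512 to 2.22 RPKM in the lower, so that its values overlapped. Both ranges held deep and shallow libraries, with 6 deep and 11 shallow in the higher and 8 deep and 5 shallow in the lower. Multiplied by transcript length and depth, the lower values stood for about 1 to 67.8 reads and the higher ones for about 77.7 to 945.0. Cd300ld4 was therefore near the limit of detection in some tumours of the lower range (about 1 read in 4142 and 4 in 4438) and well above it in others. Reads of Cd300ld4, Cd300ld5 and Cd300ld3 cannot be told apart over most of their length, so which of these genes the reads came from is uncertain. Reads of Cd300ld2 could enter as well over the stretch it shares.

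**Figure D2:**
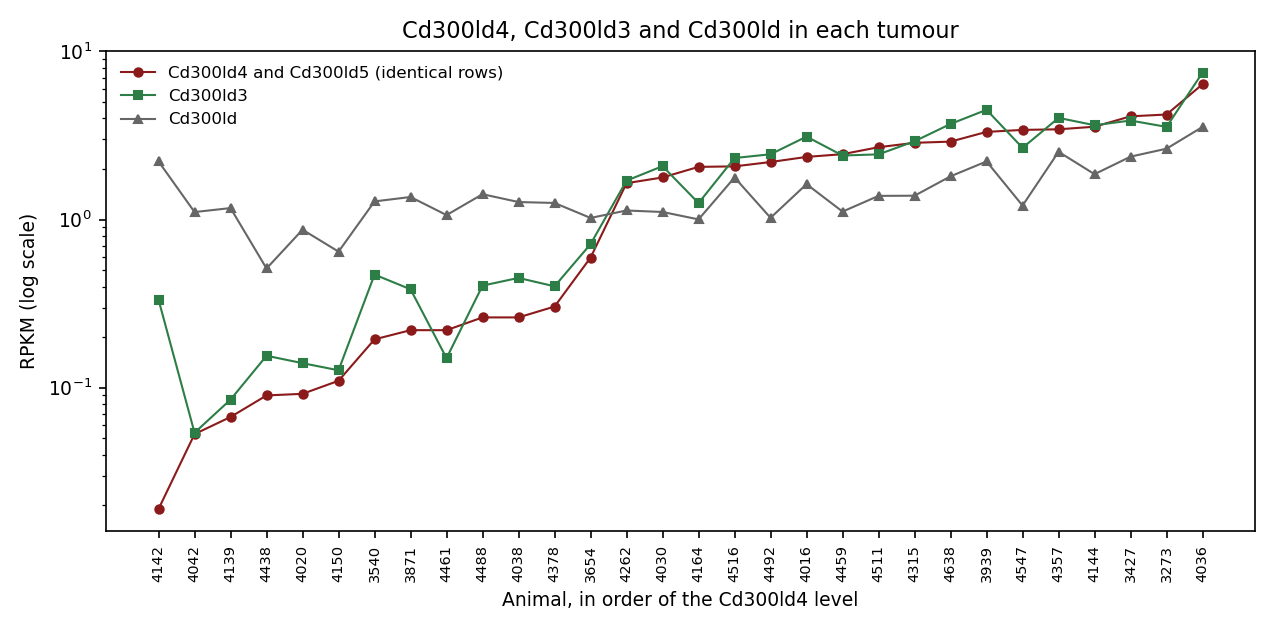
RPKM (log axis) of Cd300ld4 with Cd300ld5, of Cd300ld3 and of Cd300ld in each tumour, with tumours in order of the Cd300ld4 level. Cd300ld4 and Cd300ld3 step up together between animals 3654 and 4262, while Cd300ld shows no such step.

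Each tested gene was then set against scores for the cell types a tumour piece could hold. A score is the mean of the standardised log2 values of a list of marker genes, none of them a Cd300 gene, and slopes are log2(RPKM + 0.1) units per SD of the score, from limma with insert size as a covariate and Benjamini-Hochberg adjustment over all tested genes. In bulk tumours, fewer cells of a type and less RNA per cell cannot be told apart. The scores are themselves related: the macrophage score correlated at r = 0.78 with the endothelial, 0.69 with the mast cell and 0.59 with the adipocyte score, and the mast cell score at 0.83 with the adipocyte score (n = 30, given as a description).

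Of the 6 distinct measurements, 5 rose with the macrophage score and none fell, against 8.17% of all 17060 genes tested (6.57% rising, 1.6% falling). The median slope of the 6 was 0.46, beside 0.0049 over all genes. Cd300a had a slope of 0.44 ± 0.05 (SE, adjusted p = 8.54e-07), Cd300ld one of 0.47 ± 0.06 (adjusted p = 4.37e-06) and Cd300lg one of 0.52 ± 0.08 (adjusted p = 0.000113). Cd300lb followed with 0.37 ± 0.08 (adjusted p = 0.00191). Cd300ld4 had the steepest slope but also the largest SE, 1.02 ± 0.28 (adjusted p = 0.0197). That slope is a single line through both of its ranges and depends on its wide spread, so it does not rank the strength of the relation. The ranges are taken apart below. Cd300lf, the most abundant member, had a slope of 0.14 ± 0.07 that did not pass (adjusted p = 0.182).

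Within the depth classes all these slopes kept their sign. For Cd300a they were 0.47 ± 0.07 in deep and 0.43 ± 0.08 in shallow libraries, and both passed (adjusted p = 0.0111 and 0.0335). Those of Cd300ld, 0.40 in deep and 0.55 in shallow libraries, passed as well (adjusted p = 0.0383 and 0.0274). Cd300lg passed in deep (0.65, adjusted p = 0.0268) but not in shallow libraries (0.37, adjusted p = 0.175), and Cd300lb (0.41 in deep, 0.31 in shallow libraries) and Cd300ld4 (1.03 and 1.16) passed in neither. Without tumour 4036, the calls of Cd300lb (slope 0.25, adjusted p = 0.0553) and Cd300ld4 (0.88, adjusted p = 0.108) were lost, and that of Cd300ld4 was also lost without tumour 4438 (0.90, adjusted p = 0.0726).

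Because the values of Cd300ld4 fall into 2 ranges, its relation to the macrophage score was also taken within each. The ranges were set by Cd300ld4 itself, and the lower one rests on about 1 to 67.8 reads per tumour. In the 17 tumours of the higher range, the 2 were correlated (Pearson r = 0.89, Spearman rho = 0.84, permutation test, adjusted p = 6e-05 and 0.00024 over 6 tests, r = 0.83 without the 2 tumours farthest from the median score). In the 13 tumours of the lower range r was -0.20 and rho -0.13 (permutation test, adjusted p = 0.508 and 0.783). With the endothelial score r was 0.77 in the higher range (0.58 without 2 tumours) and -0.24 in the lower. With the adipocyte score it was 0.64 and -0.25, and the first rested on 2 tumours, since it was 0.26 without them. The differences between the ranges were not tested. The tumour with the lowest Cd300ld4 level, 4142, had a macrophage score of 1.19, among the higher ones.

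**Figure D3:**
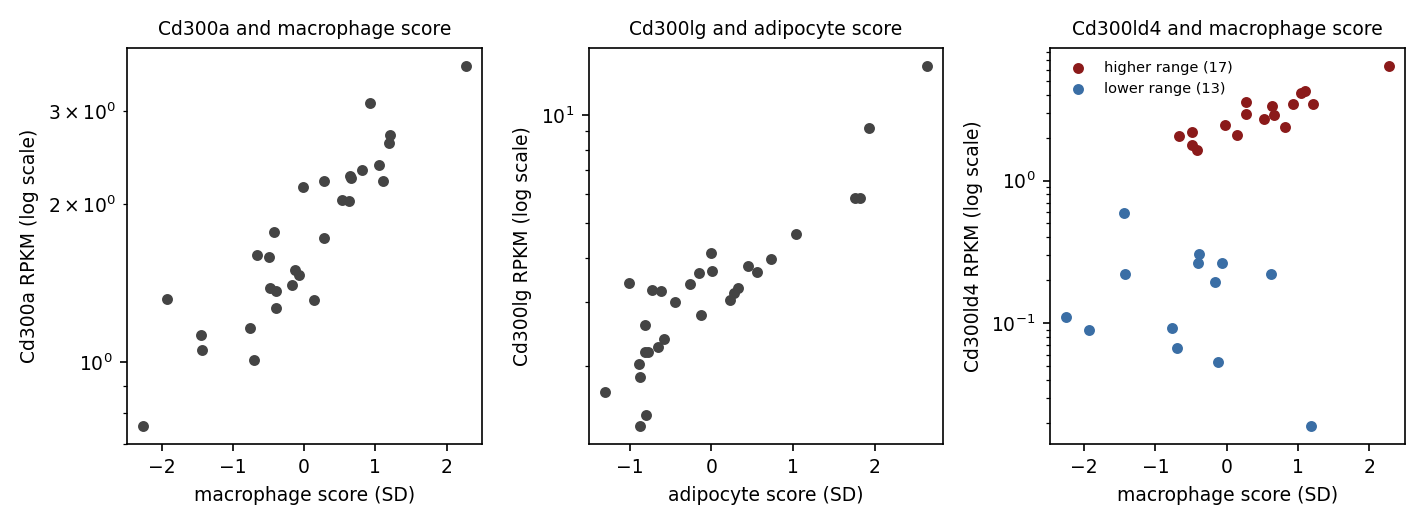
Levels (RPKM, log axis) against scores (in SD), 1 point per tumour: Cd300a against the macrophage score, Cd300lg against the adipocyte score, and Cd300ld4 against the macrophage score with its higher and lower range in 2 colours. Cd300a and Cd300lg climb along 1 band, whereas Cd300ld4 climbs in the 17 tumours of the higher range and shows no slope in the other 13.

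Cd300lg rose with markers of fat and of vessels. Its slope on the adipocyte score was 0.63 ± 0.06 (adjusted p = 1.11e-08) and that on the endothelial score 0.59 ± 0.07 (adjusted p = 8.11e-07). With the adipocyte score, 3 of the 6 measurements rose and none fell, against 7.3% of all genes (6.8% rising, 0.498% falling). The other 2 were Cd300lb (0.41 ± 0.08, adjusted p = 0.000362) and Cd300ld (0.38 ± 0.08, adjusted p = 0.00178), while Cd300a had a slope of 0.23 ± 0.09 that did not pass (adjusted p = 0.117). With the endothelial score, 4 of the 6 rose and none fell, against 18.7% of all genes (10.7% rising, 8.02% falling). Beside Cd300lg these were Cd300ld (0.46 ± 0.06, adjusted p = 4.06e-06), Cd300lb (0.37 ± 0.08, adjusted p = 0.00122) and Cd300a (0.27 ± 0.08, adjusted p = 0.02). Cd300a did not pass in limma with quantile normalization (0.21, adjusted p = 0.069). With the adipocyte score as a covariate, added after seeing the data, Cd300a and Cd300lb did not pass (adjusted p = 0.285 and 0.336). Cd300ld and Cd300lg still passed in that fit (adjusted p = 0.0077 and 0.0106).

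In both depth classes Cd300lg passed with the adipocyte score (0.69 in deep, 0.55 in shallow libraries, adjusted p = 0.00165 and 0.00152) and with the endothelial score (0.71 and 0.45, adjusted p = 0.00181 and 0.0103). Within the depth classes Cd300lb and Cd300ld did not pass with the adipocyte score in deep (0.41 and 0.37, adjusted p = 0.115 and 0.0543) or shallow libraries (0.39 and 0.41, adjusted p = 0.107 and 0.252). Likewise Cd300a and Cd300lb did not pass with the endothelial score in deep (0.32 and 0.37, adjusted p = 0.147 and 0.141) or shallow libraries (0.21 and 0.34, adjusted p = 0.334 and 0.0599). All 14 endothelial markers were detected, with a summed level of 43.7 to 177.6 RPKM. The summed level of the 12 adipocyte markers ranged from 117.8 to 2814 RPKM, with its maximum in tumour 4036. Without that tumour, Cd300ld no longer passed with the adipocyte score (0.29, adjusted p = 0.0583), nor Cd300a with the endothelial score (0.19, adjusted p = 0.139), whereas Cd300lg still passed with the adipocyte score at a slope of 0.50. Cd300lb still passed too, but its slopes without that tumour were 0.27 on the adipocyte score (adjusted p = 0.0403) and 0.24 on the endothelial score (adjusted p = 0.0337), and without the 2 tumours farthest from the median adipocyte score it did not pass with that score (0.22, adjusted p = 0.17).

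The mast cell score gave 4 rising members and none falling, against 14.3% of all genes (9.66% rising, 4.66% falling). Its 8 markers summed to 34.0 to 115.0 RPKM. Slopes were 0.58 ± 0.08 for Cd300lg (adjusted p = 2.83e-06), 0.45 ± 0.07 for Cd300ld (adjusted p = 2.1e-05), 0.43 ± 0.07 for Cd300lb (adjusted p = 2.88e-05) and 0.29 ± 0.08 for Cd300a (adjusted p = 0.0139). Cd300a was not past the threshold without tumour 4036 (0.21, adjusted p = 0.144) or with quantile normalization (0.21, adjusted p = 0.0831). With the adipocyte score as a covariate, added after seeing the data, none of the 4 passed with the mast cell score, with slopes of 0.22 for Cd300lg (adjusted p = 0.254) and 0.40 for Cd300ld (adjusted p = 0.074). The neutrophil markers summed to 32.7 to 263.5 RPKM and the T cell markers to 18.4 to 104.4 RPKM. No member passed in limma with the neutrophil score, against 0.0938% of all genes, and 1 had an unadjusted p under 0.05 (Cd300ld4, slope -0.66 ± 0.31, adjusted p = 0.746). None passed with the T cell score, against 2.44% of all genes (2.34% rising, 0.0937% falling), and 1 had an unadjusted p under 0.05 (Cd300lf, 0.17 ± 0.06, adjusted p = 0.169). None passed with insert size, against 0.0644% (0.0351% rising, 0.0293% falling), and 0 had an unadjusted p under 0.05.

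**Figure D4:**
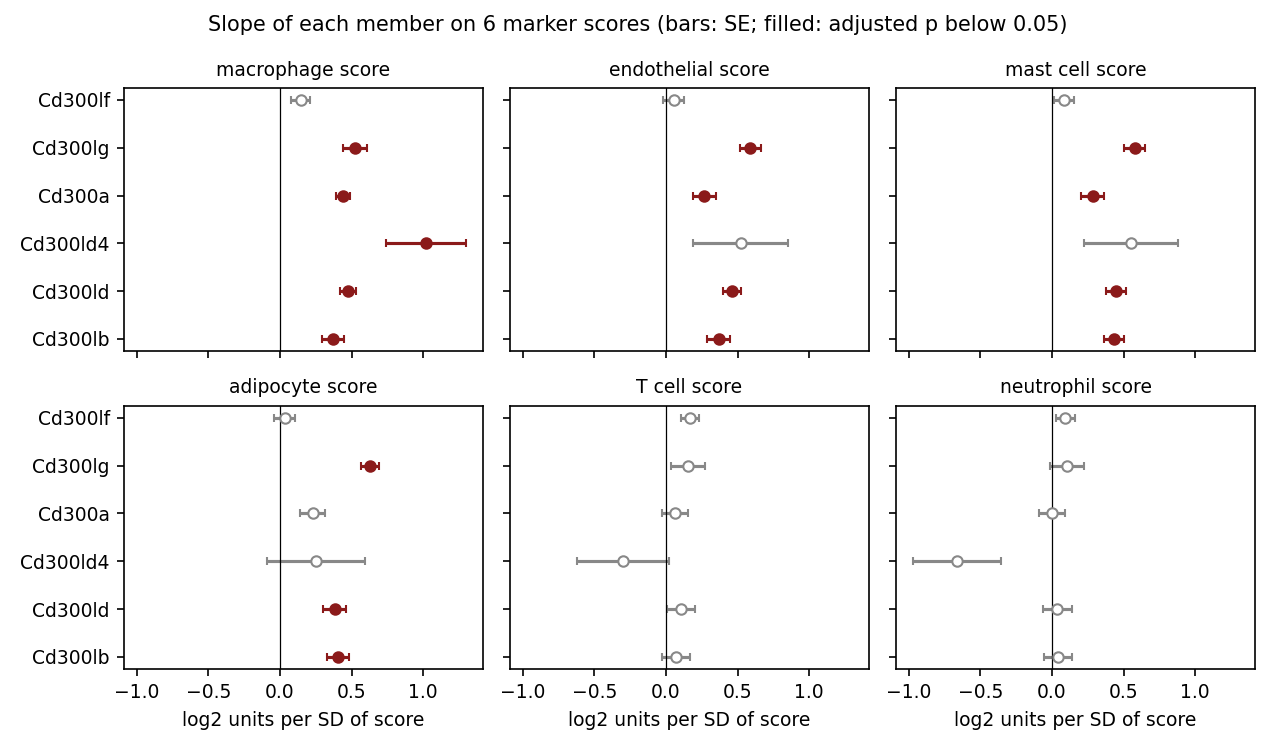
Slope of each member on each of 6 marker scores, in log2 units per SD of score, with SE bars and filled points where the adjusted p was below 0.05. Filled points lie right of 0 in the macrophage, endothelial, mast cell and adipocyte panels, with Cd300lf open in every panel and no filled point for the T cell and neutrophil scores.

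When all 6 scores and insert size entered 1 fit, 2 relations passed. Cd300a kept its slope on the macrophage score (0.58 ± 0.07, adjusted p = 9.51e-05), and Cd300lg kept its slope on the adipocyte score (0.41 ± 0.08, adjusted p = 0.00801). Cd300ld and Cd300lb had slopes of 0.29 and 0.21 on the macrophage score that did not pass (adjusted p = 0.221 and 0.488). On the mast cell score Cd300lg had a slope of 0.01 and Cd300ld one of 0.16 (adjusted p = 0.977 and 0.54). The slope of Cd300lg on the endothelial score was 0.13 there (adjusted p = 0.435), and that of Cd300a was negative (-0.29, adjusted p = 0.0575). In that fit only 26 genes of the whole table passed with the macrophage score.

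Cd300a, Cd300lb, Cd300ld and Cd300lg varied together. Among Cd300a, Cd300lb, Cd300ld, Cd300lf and Cd300lg, 6 of 10 pairs passed a permutation test of Pearson's r with 100000 resamples, adjusted over 20 tests that include those within the 2 ranges of Cd300ld4. By Pearson's r over all tumours the closest were the activating receptors Cd300lb and Cd300ld (r = 0.84, rho = 0.76, unadjusted p = 1e-05 for both, the smallest that the permutations allow, adjusted p = 6.67e-05 and 0.0001, and r = 0.77 without the 2 farthest tumours). Cd300ld and Cd300lg came next (r = 0.80, rho = 0.80, adjusted p = 6.67e-05 and 0.0001, and 0.78 without 2), and were the closer pair by rho, without the 2 farthest tumours and within deep libraries. The other 4 pairs among Cd300a, Cd300lb, Cd300ld and Cd300lg had r of 0.67 to 0.76, and rho of 0.51 to 0.71, with r of 0.51 to 0.64 without the 2 farthest tumours. For all 6 pairs r was 0.69 to 0.90 within deep libraries, 0.58 to 0.84 within shallow ones, and 0.59 to 0.80 without tumour 4036. The share of gene pairs outside the family that would pass the same test was not computed, so the 6 of 10 have no background beside them.

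The 4 pairs with Cd300lf had r of 0.11 to 0.32 and did not pass (permutation test, adjusted p of 0.146 to 0.618). In the higher range of Cd300ld4 (17 tumours), that gene correlated with Cd300ld (r = 0.83, rho = 0.83), Cd300a (0.76 and 0.69), Cd300lb (0.75 and 0.64) and Cd300lg (0.71 and 0.57), all past the threshold in the permutation test, but not with Cd300lf (0.21 and 0.28). The pair with Cd300lg rested on 2 tumours, since r was 0.36 without the 2 farthest. In the lower range (13 tumours) Cd300lf was the one member to pass (r = 0.62, rho = 0.64, permutation test, adjusted p = 0.0454 and 0.0384), with r = 0.43 without 2 tumours, and the other 4 members had r of -0.23 to -0.0023.

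The genes most like each member across the 30 tumours differed between members. These are r values given as a description over tumours that share their libraries. For Cd300a they were Lgmn, a lysosomal protease (r = 0.85), Mpeg1 or perforin-2 (0.84), the complement receptor C3ar1 (0.81), the macrophage growth factor receptor Csf1r (0.81) and the macrophage surface protein Adgre1 (0.81). All except C3ar1 are also markers in the macrophage list. For Cd300ld they were the lectin Clec4a3 (0.89), the monocyte chemokine receptor Ccr2 (0.89), the paired receptor Pira2 (0.88), the phosphatase Ptpro (0.88) and the macrophage lectin Clec10a (0.88). Clec10a was also near Cd300lb (0.88), with Clec3b (0.87) and 3 Ugt1a genes, Ugt1a7c, Ugt1a10 and Ugt1a9 (0.87 to 0.88), which share exons and so are nearly 1 measurement.

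Cd300lg was nearest to Enpep, an aminopeptidase (r = 0.95), Aoc3, the vascular adhesion protein VAP-1 (0.93), the focal adhesion protein Tns1 (0.93), the fatty acid receptor Cd36 (0.93) and Nrp1, a co-receptor of vascular growth factors (0.92). Within deep and shallow libraries these 5 had r of 0.90 to 0.96. For Cd300lf the nearest were Rab37 (0.78), Soat2 (0.71), Itgb2l (0.70), Tat (0.70) and Mymx (0.69). These r were 0.78 to 0.86 within deep and 0.45 to 0.69 within shallow libraries. Rab37 overlaps Cd300lf in the annotation. Whether the transcripts of the 2 genes share sequence, and so could share reads, was not examined. Genes near Cd300ld4 included Cd300ld3, C1qtnf1 and Fads6, all on chromosome 11, and Lgmn. Its r with Cd300ld3 was 0.87 within the higher range and 0.73 within the lower one. With C1qtnf1, a secreted C1q-like protein, r was 0.09 and -0.01, and with Fads6 it was 0.17 and 0.47, whereas Lgmn had 0.77 and 0.12.

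The partners through which the receptors signal were followed as a list. All 12 were tested, and 7 rose with the macrophage score while none fell (median slope 0.24). The adaptor Tyrobp, used by activating members such as Cd300lb, averaged 53.3 ± 13 RPKM (SD) with a slope of 0.28 ± 0.04 (adjusted p = 3.42e-05). Fcer1g, the adaptor of Cd300ld, averaged 40.3 ± 10.5 RPKM with a slope of 0.26 ± 0.04 (adjusted p = 0.000151). The phosphatase Inpp5d (SHIP-1), the kinase Syk and the interleukin-4 receptor chain Il4ra, which is known to associate with Cd300lf, rose too, with slopes of 0.32, 0.39 and 0.245. The other listed phosphatases, Ptpn6 (SHP-1) and Ptpn11 (SHP-2), had slopes of -0.03 and 0.10 that did not pass (adjusted p = 0.752 and 0.0985). Grb2, an adaptor that nearly all cells use, had a mean of 30.3 RPKM and a slope of -0.02 ± 0.03 (adjusted p = 0.685).

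Of 21 genes listed as other paired or related receptors, 11 rose and none fell (median slope 0.19). The highest by mean were Sirpa (23.4 RPKM, slope 0.25), Trem2 (12.7 RPKM, slope 0.31) and Pirb (11.9 RPKM, slope 0.18), and those with the smallest p also included Clec4a2 (0.50), Lilra6 (0.41), Cd33 (0.32) and Siglec1 (0.58). Of 10 other receptors for phosphatidylserine, 5 rose and none fell (median slope 0.18). These were Axl (0.35 ± 0.04, adjusted p = 6.16e-06), Stab1 (0.26), Cd36 (0.97), Havcr2 (0.22) and Timd4 (0.76), whereas Tyro3, the most abundant of the list at 23.3 RPKM, had a slope of 0.09 ± 0.07 (adjusted p = 0.456). These counts, like that of the Cd300 members, stand against 6.57% of all genes rising. They are not particular to the macrophage score. With the endothelial score 6 of the 12 partners, 11 of the 21 paired or related receptors and 4 of the 10 phosphatidylserine receptors rose, against 10.7% of all genes. Cd36 and Timd4 were steeper on the adipocyte score (1.41 and 0.958) and on the endothelial score (1.05 and 0.997). Axl, Stab1 and Havcr2 were less steep on both.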

How the data were processed

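Per the labels' protocols, poly-A RNA of 30 tumours was fragmented and made into gel-sized libraries. The values that the authors deposited are in RPKM, in 1 table of 27902 transcript rows. The unit was inferred from the values: low values times transcript length fell on steps that differed between columns, and 68.7 to 77.2% of them lay within 0.12 of a whole read, against 24.0% by chance. This was too few to rebuild counts. Per the submitters' processing notes, CASAVA 1.7.0 was used; no source used here gives the aligner, build or annotation. Rows were named by accession with a RefSeq table of GRCm38.p6 (27157) and GENCODE vM21 (163). The unnamed rows (582) and 898 small RNA rows were left out. For each gene the row of highest mean was used. Transcripts of a gene share reads, and RPKM depends on all other genes of a library.

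The members, marker lists and tests were chosen with earlier results of these data known. The 17079 genes averaging at least 0.1 RPKM were fitted as log2(RPKM + 0.1) on each score, with insert size as a covariate, or on insert size alone (limma 3.58.1, R 4.3.3, empirical Bayes with trend, two-sided, Benjamini-Hochberg within each score, threshold 0.05). A fold on this scale understates changes of low genes. Markers were left out of counts of their own score. The lists were macrophage, neutrophil, mast cell, T cell, endothelial and adipocyte markers for scores, luminal epithelial, dendritic cell and B cell markers for description, and signalling partners, other paired receptors and phosphatidylserine receptors. Each animal gave 1 library, so errors hold both animal and technical spread, and RPKM values carry no counting interval. Correlations used 100000 permutations (two-sided, numpy and scipy in Python). A gene whose sorted values had a gap over 1 log2 unit with at least 3 tumours on each side got no pooled r as a result; pooled r served only to choose the genes most like it. Named genes were the members, the 5 genes of at least 1 RPKM most like each, the other Cd300 genes, 8 genes on each side of them, and from the 3 last lists the 3 most abundant and up to 6 with the smallest p; some of these genes are not reported here. Alternatives were other pseudocounts, filters, scaling, depth class, tumours left out and all scores in 1 fit. The methods were tested on simulated data.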

Additional observations from a re-analysis of the deposited data

How the results depend on the processing

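No paired analysis was possible because the samples form 1 group with 1 tumour per animal. Of the 17 member slopes followed (all 6 on the macrophage score and the 11 that passed on others), Cd300a on the macrophage score and Cd300lg on the adipocyte score stayed past the threshold in every alternative, with adjusted p up to 0.0335 and 0.00801. With all scores in 1 fit, the slopes of Cd300a and Cd300lb on the endothelial score were -0.29 and -0.13, opposite in sign to those fitted alone; the cause was not tested. In that fit the macrophage score gave 26 genes and 1 member, the mast cell score 3 genes and 0 members (1 at an unadjusted p under 0.05, limma), the endothelial score 844 genes and 0 members (1 unadjusted), the adipocyte score 77 genes and 1 member, and the neutrophil score 6 genes.

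With the adipocyte score as a covariate, chosen after seeing the data, the macrophage score gave 256 genes, the mast cell score 176 genes and 0 members (4 unadjusted, limma), and the endothelial score 1181 genes and 2 members. Without Kit, which mammary epithelium also expresses, and with no adipocyte covariate, the mast cell score gave 2055 genes, against 2445. Leaving out Kit was also chosen after seeing the data. Deep libraries alone gave 111 genes and 3 members for the macrophage score, 572 and 2 for mast cell, 710 and 2 for endothelial, 298 and 1 for adipocyte, 67 genes for T cell, 0 for neutrophil (295 unadjusted) and 2 for insert size. Shallow libraries alone gave 103 genes and 2 members for the macrophage score, 606 genes for mast cell, 944 and 2 for endothelial, 553 and 1 for adipocyte, 207 genes for T cell, 1 for neutrophil and 0 for insert size (3461 unadjusted). Both classes hold fewer tumours. Without the 2 farthest tumours of each score there were 245 genes and 3 members for macrophage, 965 genes for mast cell, 450 and 1 for adipocyte, 89 for T cell, 0 for neutrophil (892 unadjusted) and 199 for insert size.

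The remaining changes concern counts of all genes, and their cause was not tested. Neutrophil counts were 156 when adjusted over all scores, 76 with a pseudocount of 1, 9 at a mean of at least 1 RPKM and 6 with quantile normalization, against 16. T cell counts were 649 when adjusted over all scores, 194 at 1 RPKM and 228 with quantile normalization, against 416. The adipocyte count was 740 at 1 RPKM, against 1246. Insert size counts were 6 with a pseudocount of 1, 4 at 1 RPKM, 30 with quantile normalization and 404 with depth class as a covariate, against 11. Quantile normalization also shifted the split of rising and falling genes, to 1000 and 708 for macrophage (against 1120 and 273), 1117 and 940 for mast cell (1649 and 796), 1565 and 1886 for endothelial (1827 and 1368), 809 and 184 for adipocyte (1161 and 85) and 20 and 10 for insert size (6 and 5). Under it the pairs of Cd300lf with Cd300lb, Cd300ld and Cd300lg, which did not pass, had r of -0.25, -0.018 and -0.12.

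Leaving out each tumour in turn gave 500 to 1795 genes and 3 to 5 members for the macrophage score, 1237 to 2746 and 3 to 4 for mast cell, 2146 to 3345 and 3 to 4 for endothelial, 703 to 1411 and 2 to 3 for adipocyte, 248 to 488 genes for T cell, 0 to 21 for neutrophil and 1 to 144 for insert size. The lowest of these for the macrophage, mast cell, endothelial and adipocyte scores were without tumour 4036, that for T cell without 4378 and that for neutrophil without 4142 (863 unadjusted). Without tumour 4438 the macrophage score gave 855 genes, and without 4378, 3540 or 4038 the neutrophil score gave 1, 9 and 9. Other transcript rows of Cd300lf, Cd300lg and Cd300ld4 gave means of 3.78, 3.41 to 3.68 and 1.76 RPKM, within the spread between tumours. Few reads limit the lower range of Cd300ld4, which held 8 deep and 5 shallow libraries. Over all 30 tumours the 2 rows of the gene held the same value in 4. Their r of 0.99 on the log2 scale spans both ranges.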

Other observations

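The other Cd300 genes of the table were Cd300c2, Cd300ld3, Cd300c and Cd300e. Cd300c2 had a higher mean than any member (5.52 RPKM), with 2.86 RPKM in its lowest tumour (3654), 5.62 in the median and 7.83 in the highest (4547). It rose with the macrophage score (slope 0.28 ± 0.06 log2 units per SD, limma, adjusted p = 0.00139) and did not pass with the adipocyte score (0.12, adjusted p = 0.381). Cd300e was low, with a median of 0.313 RPKM and a highest value of 0.715 RPKM in tumour 4036, and rose with the macrophage score (0.44 ± 0.08, adjusted p = 0.000311), the mast cell score (0.45 ± 0.08, adjusted p = 9.55e-05) and the endothelial score (0.37 ± 0.09, adjusted p = 0.00371). Cd300c had a median of 0.566 RPKM. Cd300ld3 rose with the macrophage score (1.08 ± 0.23, adjusted p = 0.00285), with the limit on shared reads given above.

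Genes beside the family on chromosome 11, in RefSeq gene order, were compared with the members other than Cd300ld4 and Cd300ld5, for which no pooled r is given. For each neighbour the highest absolute r over these members was taken, and the share of all genes reaching 0.6 was not computed. Cd300lg lies apart from the others. Of 7 tested genes before it, 1 had an absolute r of at least 0.6 with a member, namely the phosphatase Dusp3 with Cd300lg (r = 0.69), and of the 8 after Cd300lf none did, leaving aside the overlapping Rab37. Fads6, one of those 8, was among the genes nearest Cd300ld4, with r of 0.17 within its higher and 0.47 within its lower range. Looking, after the data had been seen, at the inner sides as well, 0 of the 8 genes after Cd300lg and 1 of 7 before Cd300a did so, the tweety family protein Ttyh2 with Cd300lg (r = 0.70). Among the lists not used as scores, the 9 dendritic cell markers summed to 6.65 to 27.5 RPKM. Of these, 5 rose with the macrophage score, against 6.57% of all genes. With the mast cell and endothelial scores 7 rose, against 9.66% and 10.7% of all genes. The 8 B cell markers summed to 3.72 to 123.2 RPKM, with a median slope on the macrophage score of 0.13.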
